A study of Mus musculus with 12 samples.

Results

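The genes described here are 35 mouse genes of homologous recombination and Fanconi anaemia repair, taken by name from a list that was drawn up with earlier results of these data known. They were found by Ensembl gene ID among the 54232 genes of the count files, and all 35 passed the filter on low counts that kept 16767 genes for testing. The study sequenced RNA from MMTV-NIC breast cancer cells in 12 libraries. These are mouse mammary tumour cells in which a mouse mammary tumour virus promoter drives an activated Erbb2 (Neu) transgene together with Cre recombinase. The cells were AXL WT or AXL KO, that is with or without a working gene for the receptor tyrosine kinase AXL, and were held at 21% oxygen (normoxia) or 1% oxygen (hypoxia). Each of the 4 groups, AXL WT normoxia, AXL WT hypoxia, AXL KO normoxia and AXL KO hypoxia, had 3 libraries, and every group carries the same oncogene. The labels give neither how long hypoxia lasted nor how many knockout clones were used, so that clone and genotype cannot be told apart. Separate cultures are not named for the replicates either, and p-values therefore reflect the spread among these libraries alone, which may be technical.

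Homologous recombination repairs DNA double-strand breaks from an intact copy, usually the sister chromatid, and is used mainly while DNA is being copied and shortly after. Checkpoint kinases signal the break, nucleases trim its ends to single-stranded DNA, the BRCA1 and BRCA2 complexes load a recombinase onto that DNA, and paralogs and remodellers of the recombinase help the strand invade the copy. The Fanconi pathway joins this machinery at crosslinks between the strands: a core complex attaches ubiquitin to the FANCI-FANCD2 pair, which opens the way to cutting and recombination. Many of these genes are known as E2F targets, transcribed as cells enter the phase of DNA synthesis, and loss of BRCA1 or BRCA2 function predisposes to breast cancer.

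Because the members include many known E2F targets, the DNA around their transcription starts was read for E2F words (from RefSeq, build GRCm38.p6, 250 bases before to 50 after the start). The words searched on both strands were TTCCCGC, its relative TTGGCGC, the variant with a CpG step in the middle, TTCGCGC, and the variant TTGCCGC. Of the 27 members in the promoter table, 17 (63.0%) held at least 1 word, against 10.9% of 27025 genes in the table and 18.7% of 11254 genes that were also tested here. The following stretches of 30 bases were chosen, after the values were seen, among promoters that held a word: 7 of members that fell in AXL KO normoxia, and that of Rad52, which rose. Each is written 5′ to 3′ on the gene's own strand with the word in capitals.
Brca1 (chr11:101551916-101551945, minus strand, word starting at base 22 counted from the start): gctagcgctagGCGCCAAgcggccggtttc
Chek1 (chr9:36726609-36726638, minus strand, base 44): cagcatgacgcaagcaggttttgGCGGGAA
Rad51ap1 (chr6:126939557-126939586, minus strand, base 13): tctggttttcgGCGGGAAttgaaaccgcca
Polq (chr16:37011785-37011814, plus strand, base 11): tgaagatggagGCGGGAAgatggaggcggt
Fanci (chr7:79392345-79392374, plus strand, base 19): cgtggagtagaGCGGGAAttttggaaggat
Brip1 (chr11:86201179-86201208, minus strand, base -4): aggggcgggagGCGCGAAttcatctgtgtg
Bard1 (chr1:71103162-71103191, minus strand, base -208): cgccgctcagtTTCCCGCtcaggaagtttg
Rad52 (chr6:119902555-119902584, plus strand, base -132): ttgctgcggctGCGGGAAggctgatcgccg
Words that end in AA are the searched ones read on the other strand. In Brca1, Chek1, Rad51ap1, Polq and Fanci the word lay within the first 50 transcribed bases, and in Brip1 it ended just past the start.

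The 250 bases before the start are given whole for Brca2 and Rad52, which are both read from the plus strand and each held 1 such word in this stretch, but which went in opposite directions in AXL KO cells.
Brca2 (chr5:150522371-150522620): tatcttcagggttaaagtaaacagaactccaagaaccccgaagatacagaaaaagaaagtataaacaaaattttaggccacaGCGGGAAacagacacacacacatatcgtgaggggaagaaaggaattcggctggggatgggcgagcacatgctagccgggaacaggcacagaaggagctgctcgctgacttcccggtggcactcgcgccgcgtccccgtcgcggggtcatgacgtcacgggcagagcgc
Rad52 (chr6:119902448-119902697): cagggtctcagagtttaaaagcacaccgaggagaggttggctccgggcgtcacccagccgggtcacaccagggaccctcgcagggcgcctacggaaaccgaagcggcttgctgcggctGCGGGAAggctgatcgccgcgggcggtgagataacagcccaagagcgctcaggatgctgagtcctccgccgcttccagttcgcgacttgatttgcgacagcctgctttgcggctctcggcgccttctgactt
The CCAAT box, the site of the factor NF-Y (letters CCAAT, both strands), was in 17 of the 27 member promoters (63.0%), against 43.0% of tested genes. The CHR element TTTGAA, known from genes of mitosis, was in 3 (11.1%, against 14.5%), and the core ACGTG of the hypoxia response element was in 8 (29.6%, against 28.4%). A match describes these letters and is not a measured binding site. The promoters of Fancd2, Rad50, Nbn, Rbbp8, Exo1, Xrcc2, Rad51d and Rad54b were not analysed here.

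Total counts ran from 45297267 to 58775422 per library. Levels are given as CPM (edgeR's counts scaled to library size with TMM factors), and levels of different genes are compared only as RPKM, which is CPM per kilobase of gene length. Axl itself stood at 892 to 1000 CPM in AXL WT normoxia, 455 to 592 in AXL WT hypoxia and 1.72 to 3.47 in the 6 AXL KO libraries, so the titles match the targeted gene. The epithelial genes Krt8 and Krt18 were above 300 CPM in every library, whereas Krt19 was at 0 or below 0.31 CPM throughout. The whole list of 8 epithelial markers summed to 3230 to 3330 CPM in AXL WT normoxia, 1080 to 4710 in AXL WT hypoxia, and for AXL KO to 2250 to 2540 in normoxia and 2420 to 2520 in hypoxia. Of the 7 tested, 3 were lower in AXL KO normoxia and 0 higher (Cdh1 at -0.96, Epcam at -1.64 and Cldn4 at -2.86 on the log2 scale). With hypoxia 3 rose and 2 fell in AXL WT and 1 rose in AXL KO, and between the genotypes in hypoxia 1 was higher and 3 lower.

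The 3 AXL WT hypoxia libraries stood apart from the rest. The biological coefficient of variation among them was 0.402, whereas the other 3 groups had values from 0.0565 to 0.0895. Erbb2, the mouse counterpart of the transgene, ranged there from 131 CPM in library 2 to 2410 CPM in library 1, and from 500 to 1340 CPM in the other 9. The summed CPM of 7 leukocyte markers was 14.8, 152 and 47.3 in libraries 1, 2 and 3, of which Csf1r made up 5.41, 145 and 41.1, while Ptprc, present on nearly all leukocytes, was below 0.08 CPM. That sum was 10.8 to 12.3 in AXL WT normoxia, and across the 6 AXL KO libraries 49 to 85.3, there almost all Cd68, with Ptprc at or below 0.0357 CPM. Summed fibroblast markers (7 genes) ran from 66.6 to 72.9 CPM in AXL WT normoxia, 58 to 83.8 in AXL WT hypoxia, and in AXL KO 172 to 187 with normoxia but 26.1 to 29.6 with hypoxia, mostly Pdgfra and Pdgfrb. Thy1 and Lum were at or below 0.05 CPM in all of them. Summed endothelial markers (6 genes) reached 0.617, 1.85, 4.35 and 17.5 CPM in these 4 groups, carried in AXL KO by Kdr, with Cldn5 at 0 in 11 libraries. The 4 adipocyte markers summed to at most 0.0937 CPM. In bulk RNA, fewer cells of a type and less RNA per cell cannot be told apart. The part of these differences in the results below was not tested, and the counts of members are given with and without AXL WT hypoxia libraries 2 and 3.

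In normoxia the recombination and Fanconi genes were lower in AXL KO than in AXL WT cells in nearly every role. By edgeR's quasi-likelihood test, 32 of the 35 members fell and 1 rose, where 30% of all 16767 genes tested were called lower and 29.7% higher. The median log2 fold change of the members was -1.4, against -0.03 for all genes, and the members ranged from -3.67 (Exo1) to 1.18 (Rad52). In 25 members the AXL KO normoxia mean was at most 50% of the AXL WT normoxia mean. The share of all genes at that cut was not computed. The 3 AXL KO libraries lay below the 3 AXL WT libraries without overlap for 32 members and above them for 3, where 40.4% and 39.3% of all genes did so. The heat map of the members by library shows this as a block of low values outside AXL WT normoxia.

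**Figure D1:**
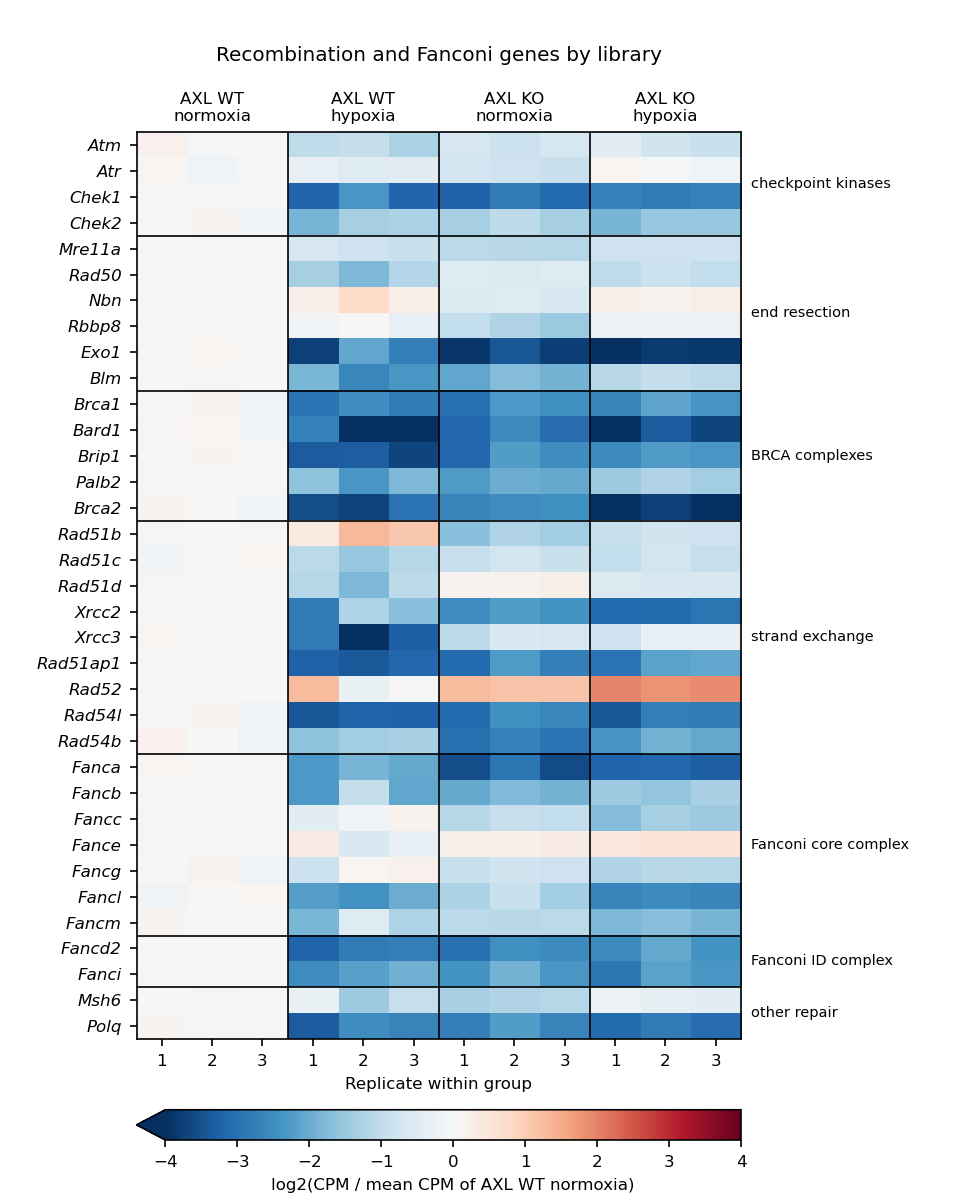
Level of each of the 35 members (rows, grouped by role) in each of the 12 libraries (columns, 3 per group), as the log2 ratio of its CPM to its mean in AXL WT normoxia, with values below the scale drawn in its end colour. 26 members have all 3 AXL WT normoxia libraries above the other 9, and Rad52 is higher in the 6 AXL KO libraries than in AXL WT normoxia.

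The checkpoint kinases fell in all 4 cases, with a median of -1.03 for the role. Chek1 (chromosome 9, 36708482 to 36727065, minus strand) encodes the kinase that ATR activates when replication stalls. It was at 31.5, 30.9 and 33.1 CPM in AXL WT normoxia and at 3.38, 4.61 and 3.69 CPM in AXL KO normoxia, a log2 fold change of -3.03 ± 0.23 (SE, n = 3 and 3, adjusted p = 3.92e-07). The groups were far apart, and the AXL KO level was 8.17-fold lower. Chek2, the kinase downstream of ATM, fell by 1.23 on the log2 scale. The apical kinases, Atm at breaks and Atr at single-stranded DNA, moved less, with log2 fold changes of -0.75 and -0.84.

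The 6 genes of end resection all fell. Mre11a, the nuclease of the complex that binds broken ends first, was at 54.1, 53.8 and 56 CPM in AXL WT normoxia and 25.9, 25.1 and 25 CPM in AXL KO normoxia (log2 fold change -1.11 ± 0.09, adjusted p = 7.72e-07). Its partners Rad50 and Nbn moved less, by -0.54 and -0.57. Rbbp8 (CtIP), which starts the trimming, fell by 1.2, and the helicase gene Blm fell by 1.89. Exo1 (chromosome 1, 175880581 to 175913489, plus strand) encodes the exonuclease of long-range resection and showed the lowest fold change of the 35. It was at 30.9, 34.3 and 31.5 CPM in AXL WT normoxia and at 2.18, 3.02 and 2.39 CPM in AXL KO normoxia, 12.7-fold lower (log2 fold change -3.67 ± 0.33, adjusted p = 1.88e-06). Within this role the complex that senses the break therefore differed by less than 1.2 on the log2 scale, and Exo1 by more than 3.

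The 5 genes of the BRCA complexes had the most uniform change of the larger roles, with a median of -2.56 and a range of -2.89 to -2.1. Brca1 (chromosome 11, 101488764 to 101551955, minus strand) was at 51.3, 55.5 and 47.2 CPM in AXL WT normoxia and at 6.29, 10.4 and 9.31 CPM in AXL KO normoxia (log2 fold change -2.56 ± 0.21, adjusted p = 8.48e-07). Every AXL KO library was thus well below every AXL WT library. Bard1, the partner with which BRCA1 forms a ubiquitin ligase, fell by 2.89. Brip1, a helicase bound by BRCA1, fell by 2.58 ± 0.22 (adjusted p = 1.07e-06). Palb2, which bridges BRCA1 and BRCA2, fell by 2.1. Brca2 (chromosome 5, 150522630 to 150570329, plus strand), the recombinase loader, was at 58.7, 54.2 and 49.8 CPM in AXL WT normoxia against 8.43, 9.75 and 10 CPM in AXL KO normoxia, a log2 fold change of -2.53. No AXL KO value came near an AXL WT value.

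Of the 9 members in strand exchange 7 fell, 1 rose and 1 was not called. Among those that fell were Rad54l, a remodeller, by 2.7 ± 0.21 (adjusted p = 6.35e-07), Rad51ap1, a stimulator of strand invasion, by 2.65, and Xrcc2, a paralog, by 2.38. Rad54b, a second remodeller, was at 11.9, 10.3 and 9.25 CPM in AXL WT normoxia and 1.3, 1.62 and 1.35 CPM in AXL KO normoxia (log2 fold change -2.88 ± 0.19, adjusted p = 1.39e-07). Its value may be uncertain, because its gene span overlaps that of Fsbp on the same strand by 7927 bases, introns included. Reads in an exon stretch that both genes share are assigned to neither, and the shared exon length was not measured. Spans of other members overlap genes on the same strand as well, such as Fancc (7547 bases with Gm16907) and Brca2 (4048 bases with Gm42531). The paralogs Rad51b, Rad51c and Xrcc3 fell by 1.4, 0.84 and 0.77. Rad51d, also a paralog, was not called (log2 fold change 0.17, adjusted p = 0.393), at 17.1 to 18.4 CPM in AXL WT normoxia and 19.4 to 20.6 CPM in AXL KO normoxia.

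Rad52 (chromosome 6, 119902698 to 119922828, plus strand), which anneals single strands and takes part in a backup route when BRCA2 is lost, was the member that rose. It was at 8.41, 8.35 and 8.45 CPM in AXL WT normoxia and 20, 18.4 and 18.5 CPM in AXL KO normoxia, a log2 fold change of 1.18 ± 0.3 (adjusted p = 0.00545). All 3 AXL KO values lay above all 3 AXL WT values, and the spread within each group was small. The coefficient of variation was 0.565% in AXL WT normoxia and 4.89% in AXL KO normoxia. The SE rests on the spread pooled over all 4 groups, and in AXL WT hypoxia that coefficient was 61.1% for Rad52.

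In the Fanconi core complex 6 of 7 genes fell. Fanca (chromosome 8, 123268300 to 123318576, minus strand), a scaffold subunit, was at 51.3, 48.3 and 47.3 CPM in AXL WT normoxia and 4.23, 6.59 and 4.11 CPM in AXL KO normoxia. Its log2 fold change of -3.3 ± 0.19 had the smallest adjusted p of the members (4.95e-08), a 9.83-fold difference with no overlap. Fancb, the partner of the ligase subunit, fell by 1.89, and Fancl, the ubiquitin ligase itself, fell by 1.15. Fancm, the translocase that anchors the complex to DNA, fell by 1.09, Fancc by 1.01 and Fancg by 0.84. Fance, which contacts FANCD2, was not called (0.24, adjusted p = 0.295). Both substrates of the complex fell. Fancd2 (chromosome 6, 113531682 to 113597017, plus strand) was at 29.3, 30.1 and 28.9 CPM in AXL WT normoxia and 3.68, 5.36 and 4.99 CPM in AXL KO normoxia (log2 fold change -2.65 ± 0.19, adjusted p = 2.76e-07), and Fanci fell by 2.19. The fold changes of the substrate pair were larger than those of 5 of the 6 core genes that fell, Fanca being the exception, with no test of that difference.

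The remaining members fell as well. Polq, the polymerase of the alternative end joining on which recombination-deficient cells are known to rely, was at 16.2, 14.7 and 14.6 CPM in AXL WT normoxia and 2.25, 3.21 and 2.41 CPM in AXL KO normoxia (log2 fold change -2.53 ± 0.22, adjusted p = 1.38e-06). Msh6, a subunit of the mismatch sensor, had the highest level of all members in AXL WT normoxia per length (25.4 RPKM) and fell by 1.21. The count of 32 members that fell was 31 or 32 in each fit that left out 1 library and 32 without AXL WT hypoxia libraries 2 and 3, where 2 were higher (38% and 36.7% of all genes). Only Xrcc3 lost its call, in 5 of those 12 fits: those without any 1 of the AXL WT normoxia libraries and those without AXL KO normoxia library 1 or 3.

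**Figure D2:**
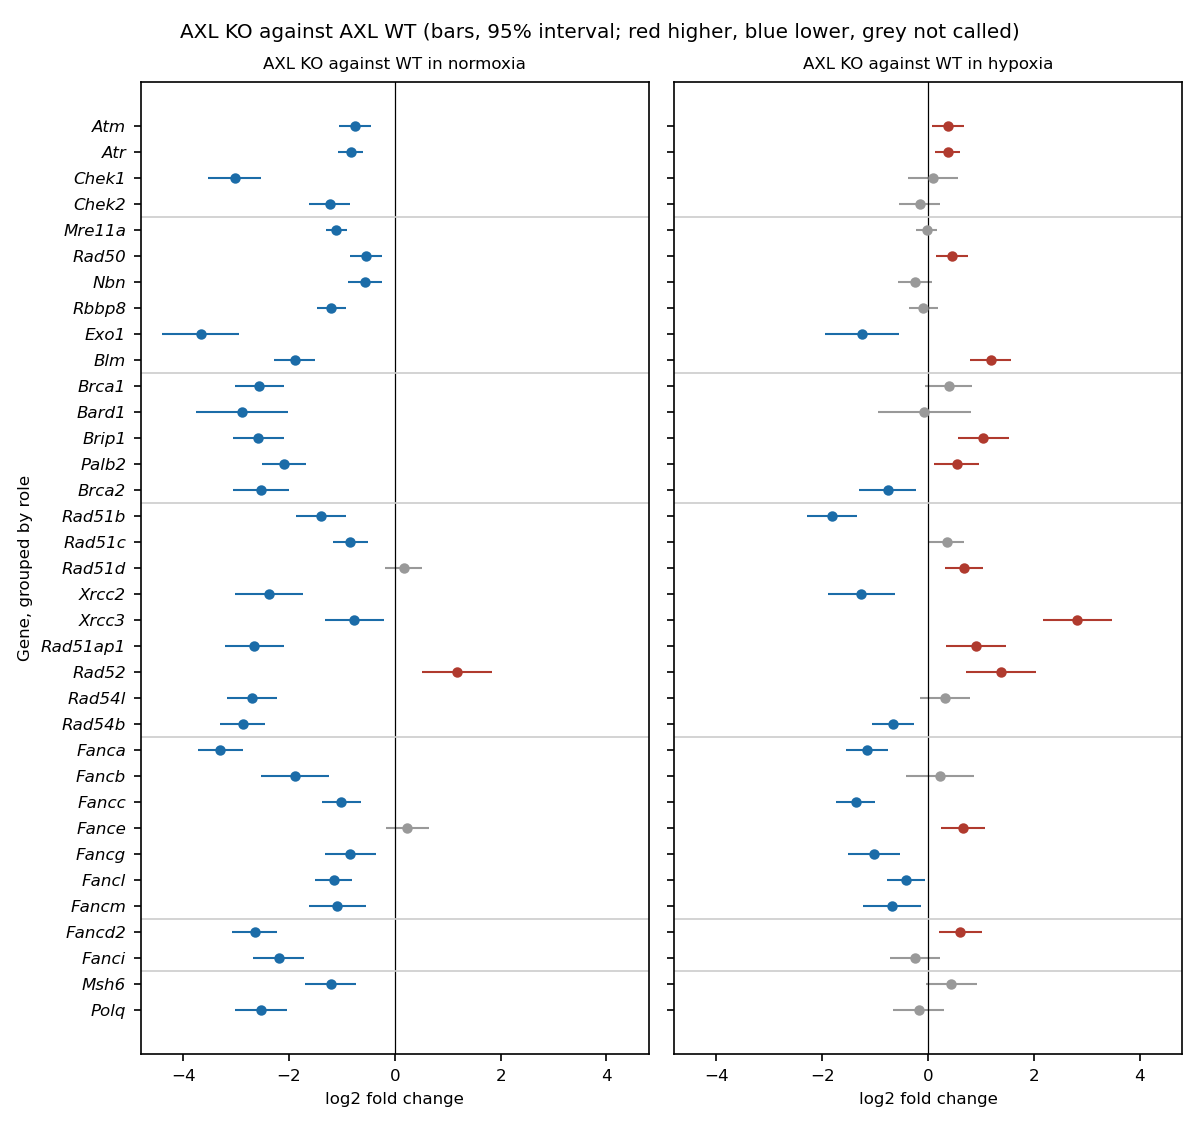
Log2 fold change of each member in AXL KO against AXL WT, in normoxia and in hypoxia, with bars for the 95% interval, in red where called higher, blue where called lower and grey where not called (edgeR, n = 3 per group). In normoxia 32 members lie below 0 and are called, while in hypoxia the members fall on both sides of 0.

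In AXL WT cells most members were lower in hypoxia than in normoxia. Of the 35 members 28 fell and 2 rose, where 30.7% of all genes tested were called lower and 29.2% higher, and the median of the members was -1.66 (-0.02 for all genes). The 3 hypoxia libraries lay below the 3 normoxia libraries for 28 members (33.4% of all genes) and above them for 2 (28%). AXL WT normoxia is the reference of this comparison as it was of the previous one, so the 2 results share those 3 libraries and are not independent of each other.

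The BRCA complexes again moved together, with a median of -3.36. Brca2 went from 58.7, 54.2 and 49.8 CPM in normoxia to 4.62, 4.17 and 7 CPM in hypoxia (log2 fold change -3.36 ± 0.25, adjusted p = 8.06e-07), 10.3-fold lower. Brca1 went to 6.56, 9.12 and 7.29 CPM (log2 fold change -2.75 ± 0.21, adjusted p = 1.06e-06), and Brip1 to 2.05, 2.09 and 1.6 CPM (-3.42 ± 0.23, adjusted p = 4e-07). Despite the spread of these libraries in other genes, none of the hypoxia values of these BRCA genes came near a normoxia value. Bard1 fell by 3.58 and Palb2 by 1.89. Bard1 was less even than its partner, at 3.84, 1.03 and 1.43 CPM in hypoxia libraries 1, 2 and 3.

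Of the strand exchange genes, Rad54l went from 15.6 to 18.6 CPM in normoxia to 1.63 to 1.87 CPM in hypoxia (log2 fold change -3.28 ± 0.22, adjusted p = 4.28e-07). Rad51ap1 went from 15.5 to 16.1 CPM to 1.52 to 1.77 CPM (-3.25 ± 0.27, adjusted p = 1.47e-06). Xrcc3 (chromosome 12, 111803192 to 111813873, minus strand) went from 3.77, 3.52 and 3.51 CPM to 0.508, 0.211 and 0.374 CPM. This paralog fell by 3.29, and its lowest library held 9 counts, the lowest count of any member in any library. Xrcc2, Rad54b, Rad51d and Rad51c fell by 1.77, 1.42, 1.29 and 1.24. Rad51b went the other way, from 8.37, 8.78 and 8.9 CPM to 11.2, 21.2 and 18.3 CPM (log2 fold change 0.96 ± 0.21, adjusted p = 0.00203). All hypoxia values of this paralog were above all normoxia values, library 1 least so.

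Chek1 went to 3.53, 6.4 and 3.53 CPM (log2 fold change -2.83 ± 0.23, adjusted p = 1.24e-06), while Chek2, Atm and Atr fell by 1.45, 1.07 and 0.43. The fall of Atr was called neither in limma-voom (adjusted p = 0.0956) nor with the compared groups alone (adjusted p = 0.0664). Among resection genes Exo1 fell by 2.7, to 2.43, 7.59 and 4.84 CPM, Blm by 2.22 ± 0.18 (adjusted p = 1.34e-06), Rad50 by 1.41 and Mre11a by 0.8. Nbn, the third subunit of the MRE11 complex, rose from 22, 22.2 and 22.1 CPM to 25.3, 38.4 and 26.4 CPM (log2 fold change 0.44 ± 0.15, adjusted p = 0.0209). That rise was called neither without AXL WT hypoxia libraries 2 and 3 (0.21, adjusted p = 0.0835) nor in limma-voom with a weight per group (adjusted p = 0.0511). The genes of the MRE11 complex thus did not move as a unit, since Mre11a and Rad50 fell while all 3 hypoxia libraries of Nbn lay above normoxia. Rbbp8 was not called (-0.14, adjusted p = 0.363), at 43.6 to 54.3 CPM in hypoxia against 54 to 55.3 CPM.

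The Fanconi genes divided by subunit. Fancd2 went to 3.2, 4.12 and 4.32 CPM (log2 fold change -2.92 ± 0.19, adjusted p = 3.65e-07) and Fanci fell by 2.18. Fancl fell by 2.19 ± 0.17 (adjusted p = 8.67e-07), Fanca by 2.06, Fancb by 1.66 and Fancm by 1.1. Fancc, Fance and Fancg were not called, with log2 fold changes of -0.12, -0.15 and -0.12. Polq fell by 2.79 ± 0.23 (adjusted p = 1.35e-06) and Msh6 by 0.8. For Msh6 the 3 hypoxia libraries ran from 39.4 to 89.9 CPM, library 1 being highest, and all were below the lowest normoxia value of 105 CPM. With the compared groups alone Msh6 was not called (adjusted p = 0.0631). Without AXL WT hypoxia libraries 2 and 3, 30 members fell and 3 rose, where 33.4% and 31.1% of all genes did so. That fit keeps 1 library for the group, which is then assumed to vary like the others. In it Rad52 rose (1.28), as did Fance (0.33), and Fancg (-0.84) and Fancc (-0.44) fell, none of which was called with all libraries. Exo1 stood at -3.72, Xrcc2 at -2.77, Fancm at -1.82, Fancb at -2.3 and Bard1 at -2.7 there, and Rad51b at 0.38 (adjusted p = 0.0365) and Msh6 at -0.25 (adjusted p = 0.0285) were closer to 0.

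**Figure D3:**
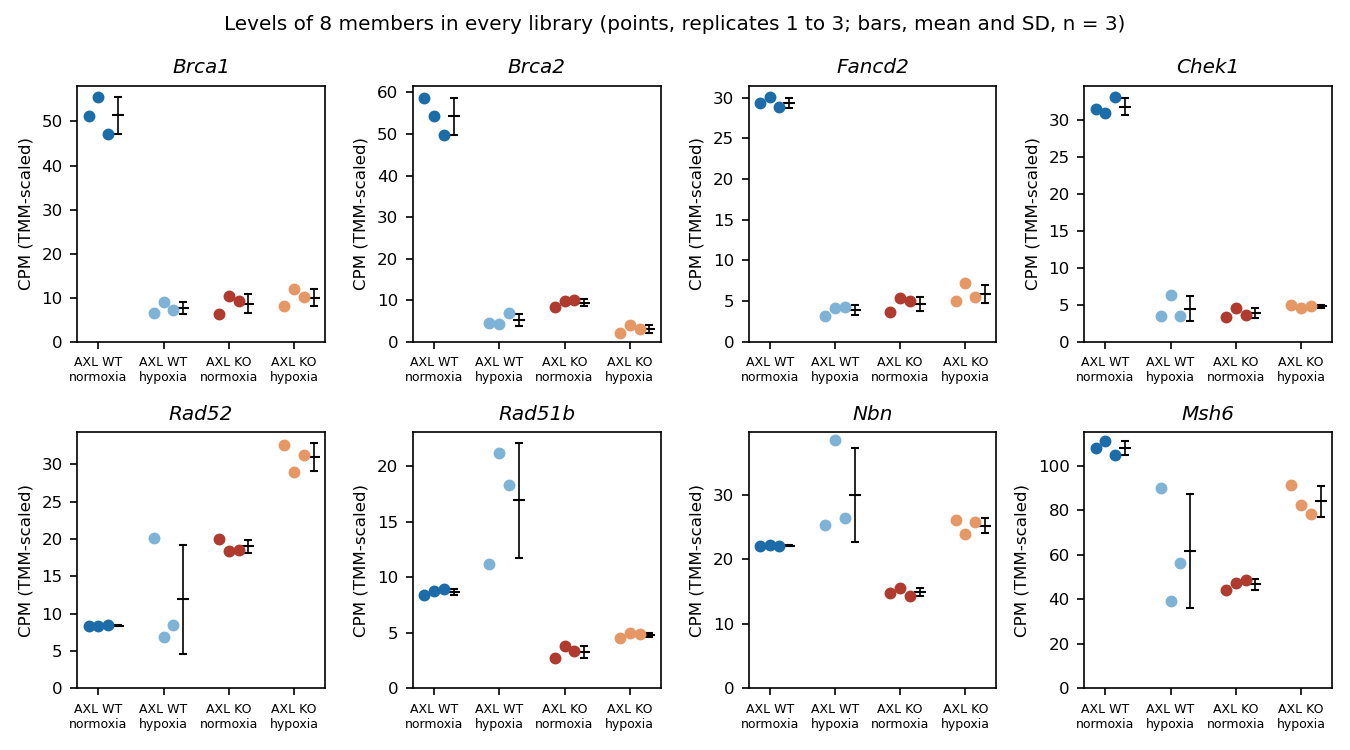
CPM of 8 members in each library (points, replicates 1 to 3 from left to right), by group, with the mean and SD of the 3 libraries as bars and axes from 0. For Brca1, Chek1 and Fancd2 the 3 AXL WT normoxia libraries lie above the other 9, whereas Rad52 lies lowest in AXL WT normoxia and in AXL WT hypoxia libraries 2 and 3.

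In AXL KO cells, whose normoxia levels of most members were low, the differences between hypoxia and normoxia were small and went in both directions. Of the 35 members 9 rose, 6 fell and 20 were not called, where 27.3% of all genes were called higher and 30.6% lower, so that the members' share higher (25.7%) was near that of all genes and their share lower (17.1%) was below it. The median of the members was 0.21 (-0.03 for all genes), and none moved by more than 1.6 on the log2 scale. The libraries did not overlap for 12 members higher and 11 lower in hypoxia, where 36.4% and 39.5% of all genes did so. The count of members that fell was 11 without AXL WT hypoxia library 1 and 3 without AXL KO normoxia library 3, AXL KO hypoxia library 1 or AXL KO hypoxia library 3. The count of all genes called lower moved as well, from 4297 to 5929 over the fits that left out 1 library. Without AXL WT hypoxia libraries 2 and 3, which are in neither group but enter the pooled spread, 14 rose (34.8% of all genes) and 11 fell (36.8%).

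End resection held 4 of the 9 that rose. Rbbp8 went from 27.9, 24 and 19.6 CPM to 46.7, 46.5 and 46.7 CPM (log2 fold change 0.97 ± 0.13, adjusted p = 6.6e-05), without overlap. Blm (chromosome 7, 80454733 to 80535119, minus strand) went from 7.36, 9.3 and 8.41 CPM to 14.4, 16 and 15.2 CPM (0.86 ± 0.17, adjusted p = 0.00125), also without overlap. Nbn rose by 0.76 ± 0.15 (adjusted p = 0.000985) and Mre11a by 0.28 ± 0.09 (adjusted p = 0.0182), while Rad50 fell by 0.42 ± 0.14 (adjusted p = 0.0202). Atr rose by 0.78 ± 0.11 (adjusted p = 0.000104), Msh6 by 0.85 ± 0.22 (adjusted p = 0.00603), Rad54b by 0.79 ± 0.19 (adjusted p = 0.00343), Palb2 by 0.75 ± 0.19 (adjusted p = 0.00542) and Rad51b by 0.54 ± 0.22 (adjusted p = 0.049). These 5 include the apical replication kinase and the bridge between BRCA1 and BRCA2, but neither BRCA gene.

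Brca2 fell further, from 8.43, 9.75 and 10 CPM in AXL KO normoxia to 2.04, 4.05 and 3.19 CPM in AXL KO hypoxia, a log2 fold change of -1.6 ± 0.24 (adjusted p = 0.000174). It was the only member of the BRCA complexes called lower, and Brca1 was not called (0.21, adjusted p = 0.407). Fancl fell by 1.45 ± 0.17 (adjusted p = 2.08e-05), Rad51d by 0.78 ± 0.16 (adjusted p = 0.00157), Fancm by 0.7 ± 0.25 (adjusted p = 0.0309) and Fancc by 0.48 ± 0.17 (adjusted p = 0.0294). In AXL KO hypoxia Brca2 was thus at 0.227 RPKM, against 3.98 RPKM in AXL WT normoxia and 1.17 RPKM for Brca1 in the same AXL KO hypoxia libraries.

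**Figure D4:**
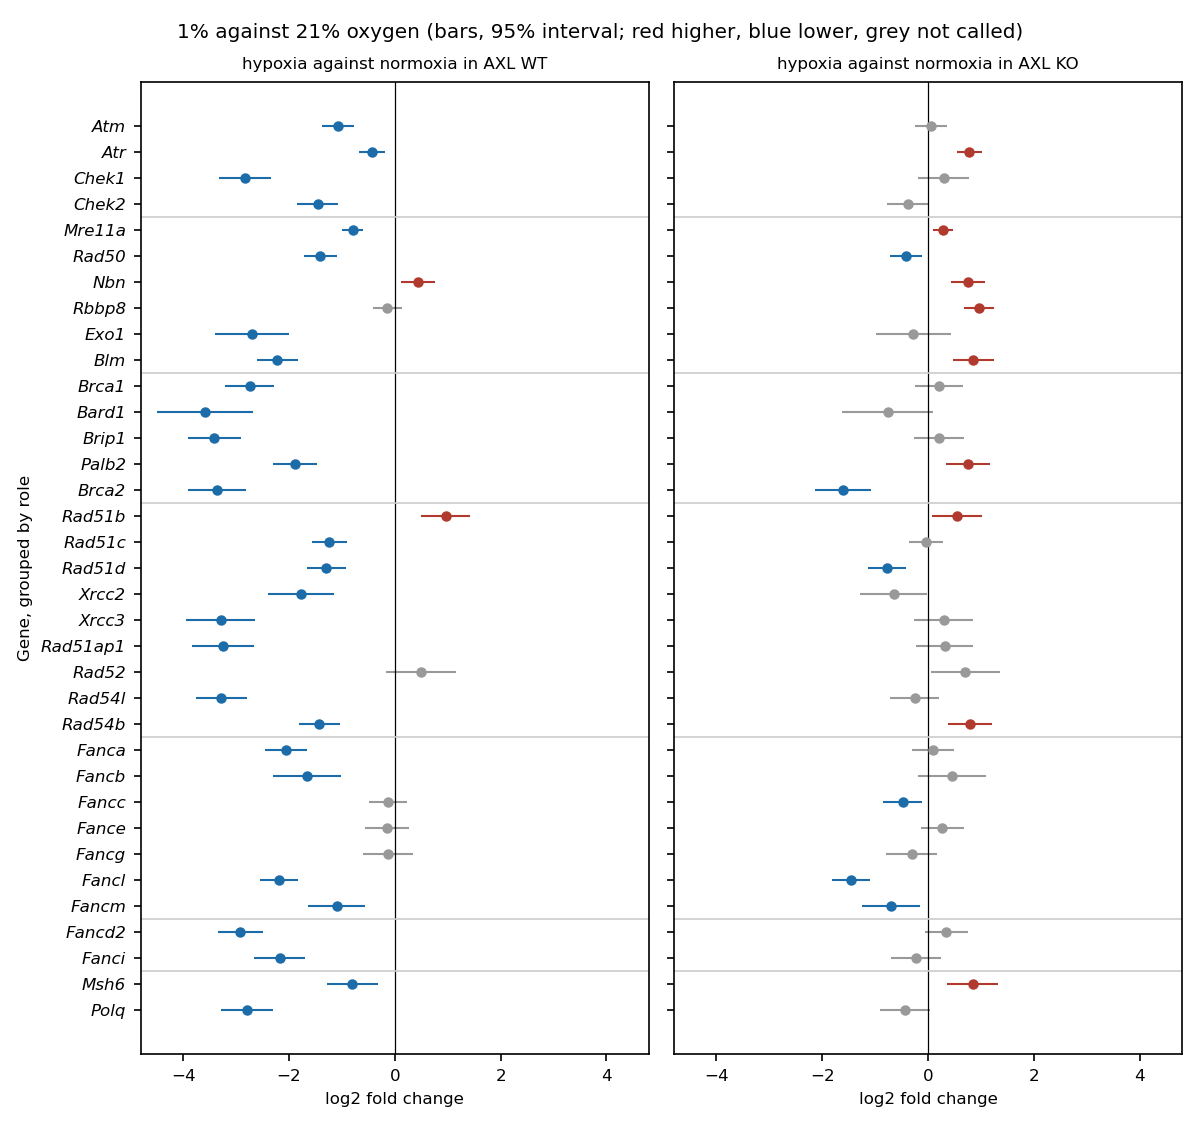
Log2 fold change of each member in hypoxia against normoxia, in AXL WT and in AXL KO cells, with bars for the 95% interval, in red where called higher, blue where called lower and grey where not called (edgeR, n = 3 per group). In AXL WT 28 members are called lower, with a median of -1.66. In AXL KO the values lie between -1.6 and 0.97.

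The response to hypoxia differed between the genotypes for most members. The difference was tested as an interaction, the hypoxia effect in AXL KO minus that in AXL WT. By edgeR 26 members were called above 0 and 0 below, where 13.5% of all genes were called higher and 15.3% lower, and the members' median was 1.65 (-0.03 for all genes). Of the 9 not called, Rad51b (-0.42), Fancc (-0.36) and Fancg (-0.18) had values below 0. At an unadjusted p under 0.05 the count below 0 was also 0, and DESeq2 and limma-voom called 0 below as well. Without AXL WT hypoxia library 1 there were 2 called below 0, and without libraries 2 and 3 there was 1 called below and 30 above (19.1% and 18.1% of all genes). All 4 checkpoint kinases, all 5 genes of the BRCA complexes and both genes of the FANCI-FANCD2 pair were among the 26. The largest values were 3.62 ± 0.31 for Brip1 (adjusted p = 1.56e-05), 3.58 ± 0.39 for Xrcc3 (adjusted p = 7.62e-05), 3.56 ± 0.36 for Rad51ap1 (adjusted p = 4.64e-05), 3.26 ± 0.27 for Fancd2 (adjusted p = 1.1e-05) and 3.12 ± 0.31 for Chek1 (adjusted p = 4.21e-05). The 9 not called were Nbn, Rad51b, Rad51d, Xrcc2, Rad52, Fancc, Fance, Fancg and Fancm. AXL WT normoxia enters this value as well, and it was above all other 9 libraries for 26 members, a pattern that 17.4% of all genes showed. The exceptions to that pattern were Atr, Nbn, Rbbp8, Rad51b, Rad51d, Rad52, Fancc, Fance and Fancg.

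Between the genotypes in hypoxia the members shared no direction, and the shares called were near those of all genes. In AXL KO 12 of the 35 members were higher (34.3%) and 10 lower (28.6%). Of all genes, 29.9% were called higher and 33% lower. The median was 0.09 (-0.04 for all genes), and the libraries did not overlap for 13 members higher and 9 lower (31.2% and 31.3% of all genes). This comparison rests on the uneven AXL WT hypoxia libraries, and its counts moved with them. Without libraries 2 and 3 of that group 10 members were higher and 4 lower (29.1% and 29.3% of all genes), and with a weight per group in limma-voom 7 were higher and 6 lower (23.7% and 25.2%). A fit to the 2 hypoxia groups alone called 4 higher and 7 lower (23.8% and 26.8%).

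Among those called higher, the paralog gene Xrcc3 gave 0.508, 0.211 and 0.374 CPM in AXL WT hypoxia and 2.01, 2.89 and 2.88 CPM in AXL KO hypoxia, 7.06-fold higher (log2 fold change 2.82 ± 0.3, adjusted p = 8e-06). Blm gave 8.66, 5.09 and 6.25 CPM against 14.4, 16 and 15.2 CPM (1.19 ± 0.18, adjusted p = 0.000116). For Rad52 the libraries gave 20.2, 6.94 and 8.48 CPM in AXL WT hypoxia and 32.6, 29 and 31.3 CPM in AXL KO hypoxia (1.38 ± 0.3, adjusted p = 0.00194), where AXL WT hypoxia library 1 lay well above the other 2 of its group but below all AXL KO libraries. For these 3 genes the groups did not overlap, and the calls held without AXL WT hypoxia libraries 2 and 3, in limma-voom and in the fit to hypoxia alone. Rad50 (0.45 ± 0.14, adjusted p = 0.0146) and Rad51d (0.68 ± 0.17, adjusted p = 0.00367) kept their calls in the first 2 of these but not in hypoxia alone (adjusted p = 0.122 and 0.0581). Brip1 (1.04), Rad51ap1 (0.91) and Fancd2 (0.61) kept them without these libraries but not in limma-voom, with adjusted p of 0.108, 0.258 and 0.205. Atm (0.38), Atr (0.37) and Palb2 (0.54) kept them in neither, and Fance (0.66) lost its call without the libraries (0.18, adjusted p = 0.148).

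Among those called lower, Rad51b (chromosome 12, 79297282 to 79814690, plus strand) gave 11.2, 21.2 and 18.3 CPM in AXL WT hypoxia and 4.56, 4.97 and 4.86 CPM in AXL KO hypoxia (log2 fold change -1.82 ± 0.22, adjusted p = 2.19e-05). Fanca gave 10, 13.5 and 11.8 CPM against 5.41, 5.53 and 4.97 CPM (-1.15 ± 0.18, adjusted p = 0.000194), and Fancc at 9.78, 12.4 and 14.6 CPM against 3.98, 5.33 and 4.91 CPM (-1.37 ± 0.17, adjusted p = 3.05e-05). These 3 did not overlap and were called in all 3 alternative fits. The other 7 were not called without AXL WT hypoxia libraries 2 and 3. Of those, Exo1 went from -1.25 to -0.22 (adjusted p = 0.378), Xrcc2 from -1.26 to -0.25 (adjusted p = 0.193), Fancg from -1.02 to -0.3 (adjusted p = 0.0742) and Fancm from -0.69 to 0.04 (adjusted p = 0.824), while Brca2 (-0.77 to -0.58), Rad54b (-0.66 to -0.49) and Fancl (-0.41 in both) moved less. In all 4 of the first set AXL WT hypoxia library 1 was the lowest of its group. Exo1 for example stood at 2.43, 7.59 and 4.84 CPM there, against 1.77 to 2.28 CPM in AXL KO hypoxia. Brca1 (0.39, adjusted p = 0.119), Chek1 (0.09, adjusted p = 0.729) and Polq (-0.18, adjusted p = 0.503) were not called in hypoxia. Their 95% intervals ran from -0.06 to 0.84, -0.39 to 0.57 and -0.67 to 0.31. Without AXL WT hypoxia libraries 2 and 3, Chek1 was called higher (0.43, adjusted p = 0.0404), as was Fancb (0.87, adjusted p = 0.00134), and Bard1 was called lower (-0.94, adjusted p = 0.00552).

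Levels per length also showed how the members rank. Summed over the 35 members, the mean was 183 RPKM in AXL WT normoxia, 90.5 in AXL WT hypoxia, and in AXL KO 80.9 at 21% oxygen but 97.9 at 1% oxygen. Msh6 was highest in every group, at 25.4, 14.6, 11 and 19.7 RPKM in that order. In AXL WT normoxia it was followed by Rad50 at 14.3 and Rbbp8 at 14.1 RPKM, which cannot be ordered at this spread. Xrcc3 was lowest there, at 1.31 RPKM, and lowest also in AXL WT hypoxia, at 0.132 RPKM. In AXL KO hypoxia Polq (0.2 RPKM), Brca2 (0.227) and Exo1 (0.248) were lowest and cannot be ordered at this spread. Fance, which no comparison moved by more than 0.66, was at 5.93, 5.33, 6.99 and 8.42 RPKM in those groups. Fance and Brca1 (6.02 RPKM) could not be ordered in AXL WT normoxia, while in AXL KO hypoxia Fance was above Brca1 (1.17 RPKM).

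Spread between libraries was itself uneven over the members. For AXL WT the median coefficient of variation of the 35 was 4.72% in normoxia and 23.9% in hypoxia, and for AXL KO it was 11.3% and 9.67%. The highest library was over 1.5 times the lowest for 21 members in AXL WT hypoxia, against 0, 6 and 5 in AXL WT normoxia, AXL KO normoxia and AXL KO hypoxia. In AXL WT hypoxia, library 1 was above the other 2 for 10 members, below them for 16 and between them for 9. In AXL KO cells library 1 was the lowest of its group for 23 members in normoxia and 24 in hypoxia. For Brca1, for example, library 1 of AXL KO normoxia was at 6.29 CPM against 10.4 and 9.31 CPM, and that of AXL KO hypoxia at 8.03 CPM against 11.9 and 10.1 CPM. The lists of mitosis and DNA replication genes described below were also lowest there. Summed CPM of mitosis genes was 552 in library 1 against 739 and 560 in AXL KO normoxia, and 605 against 907 and 783 in AXL KO hypoxia. The counts of members in this paragraph were not made over all genes, so they are not shown to be particular to the members.

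Beside the members, the lists of DNA replication and mitosis genes had the lowest medians in AXL KO normoxia and in AXL WT hypoxia. All 26 replication genes fell in AXL KO normoxia (median -2.3) and all 26 in AXL WT hypoxia (median -2.19), with 25 called above 0 in the interaction. The replicative helicase subunit gene Cdc45 fell by 3.02 in the first comparison and the polymerase gene Pole by 3.38 in the other. All 20 genes of mitosis fell in both comparisons (medians -1.84 and -2.35). The spindle checkpoint kinase Bub1 fell by 2.8 in AXL KO normoxia and the spindle motor Kif11 by 3.64 in AXL WT hypoxia. In the interaction all 20 were called above 0 (median 2.45). In hypoxia, AXL KO was higher than AXL WT for 15 of 20 mitosis genes and lower for 2 (median 0.85), and lower for 11 of 26 replication genes and higher for 2 (median -0.44). A fit without AXL WT hypoxia libraries 2 and 3 was added for the lists after the data were seen. In it these medians became 0.64 for mitosis and -0.22 for replication. In AXL WT hypoxia against normoxia the medians were then -2.13 and -2.42, in that order. A fit without library 1 alone gave 15 higher and 2 lower in AXL KO hypoxia for mitosis (median 0.99). For replication it gave 3 higher and 14 lower (median -0.54). The part of these 2 lists in the values of the recombination genes was not tested. Of 18 genes of the E2F, RB and DREAM regulators 13 fell and 3 rose in AXL KO normoxia (median -1.28), among them E2f1 by 1.98, Mybl2 by 3.78 and E2f4 by 1.46. In AXL WT hypoxia 10 fell and 5 rose, and in AXL KO hypoxia against normoxia 11 rose and 1 fell.

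The members with and without an E2F word in their promoter moved alike in direction and differed in median. In AXL KO normoxia 16 of the 17 with a word fell and 1 rose (median -1.89), and 9 of the 10 without a word fell (median -1.13). In AXL WT hypoxia 15 of 17 and 7 of 10 fell (medians -2.18 and -1.34), with 1 of the 10 called higher. Leaving out AXL WT hypoxia libraries 2 and 3 gave 16 of 17 and 8 of 10 (medians -2.3 and -1.14), with 1 of the 17 and 2 of the 10 called higher. The 17 include Brca1, Brca2 and Chek1 but also Rad52 and Fancg, whereas Fanca, the member with the smallest p in normoxia, is among the 10. These are counts over members of 1 pathway, with no test of the difference.

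A list of 34 further recombination and Fanconi genes had medians nearer 0 than the 35 in those 2 comparisons. In AXL KO normoxia 19 fell and 4 rose (median -0.46). Those with the smallest p were Rmi2, a subunit of the BLM dissolution complex (-4.15 ± 0.27, adjusted p = 1.19e-07), Mcm8, a helicase of recombination (-2.7 ± 0.19, adjusted p = 1.93e-07), Ube2t, which hands ubiquitin to FANCL (-2.87 ± 0.2, adjusted p = 2.55e-07), and Dna2, a resection nuclease (-2.84 ± 0.22, adjusted p = 5.79e-07). In AXL WT hypoxia 21 fell and 3 rose (median -0.87), with Rmi2 at -4.43, the helicase gene Rtel1 at -1.91 and the nuclease gene Eme1 at -4.02. In hypoxia 8 were higher and 8 lower in AXL KO. There Rpa1, the large subunit of the protein that coats single-stranded DNA, was at 69.1, 66.1 and 66.8 CPM in AXL WT and 354, 362 and 361 CPM in AXL KO (log2 fold change 2.42 ± 0.1, adjusted p = 3.29e-09). The 6 libraries separated widely for this gene and were even within each group. Rpa1 also rose in AXL KO cells from 97.4, 122 and 117 CPM in normoxia (1.68 ± 0.1, adjusted p = 1.95e-07). In the interaction 13 of the 34 were called above 0 and 0 below. Without AXL WT hypoxia libraries 2 and 3 the median of the 34 was 0.46 in the interaction and -0.86 in AXL WT hypoxia. Between the genotypes in hypoxia it was 0.07 (-0.14 with all libraries), with Rpa1 at a log2 fold change of 2.37. Without library 1 alone, 8 were higher and 13 lower in AXL KO hypoxia than in AXL WT hypoxia (median -0.19). In the interaction 18 were then called above 0 and 4 below.

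Genes that work upstream at stalled forks and at breaks followed in part. Of 14 ATR and replication checkpoint genes 10 fell and 0 rose in AXL KO normoxia (median -1.2), with Clspn, the adaptor through which ATR reaches CHK1, at -2.67 and the ATR activator Topbp1 at -2.3. In AXL WT hypoxia 10 fell and 1 rose, Clspn falling by 3.09. In the interaction 10 of these 14 were called above 0 and 0 below (median 1.33). In AXL KO hypoxia against normoxia 5 rose and 3 fell, Wee1, the kinase that holds back mitotic entry, by 2.44 ± 0.49 (adjusted p = 0.00113). The next list held 10 genes of break signalling and 53BP1, the pathway that protects ends from resection. Of these, 5 fell and 0 rose in AXL KO normoxia (median -0.58), among them Rif1 at -1.23. In AXL WT hypoxia 8 fell and 1 rose (median -1.02), with Mdc1 and H2afx falling by 1.79 and 1.88. In the interaction 5 of these 10 were called above 0 and 0 below (median 0.75).

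The other repair pathways also had medians nearer 0 than the 35 in AXL KO normoxia and in AXL WT hypoxia. Of 10 genes of non-homologous end joining 5 fell and 3 rose in AXL KO normoxia (median -0.52). Paxx rose by 1.7 and Xrcc5, the large Ku subunit, fell by 0.8. In AXL WT hypoxia 3 fell and 3 rose, and in the interaction 1 was called above 0 and 3 below (median -0.35). Leaving out AXL WT hypoxia libraries 2 and 3 gave 3 that fell and 1 that rose, and 2 called above 0 and 4 below. Of the 6 other mismatch repair genes 4 fell and 0 rose in AXL KO normoxia. All 6 fell in AXL WT hypoxia (median -1.04). Base excision repair held 6 that fell and 1 that rose among 13 in AXL KO normoxia (median 0.11), Parp1 falling by 1.35, and 9 and 1 in AXL WT hypoxia (median -0.64). Nucleotide excision repair was lower for 2 and higher for 3 of 13 in AXL KO normoxia (median -0.14) and split 3 and 3 in AXL WT hypoxia. The chart of the lists side by side shows this order of medians.

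**Figure D5:**
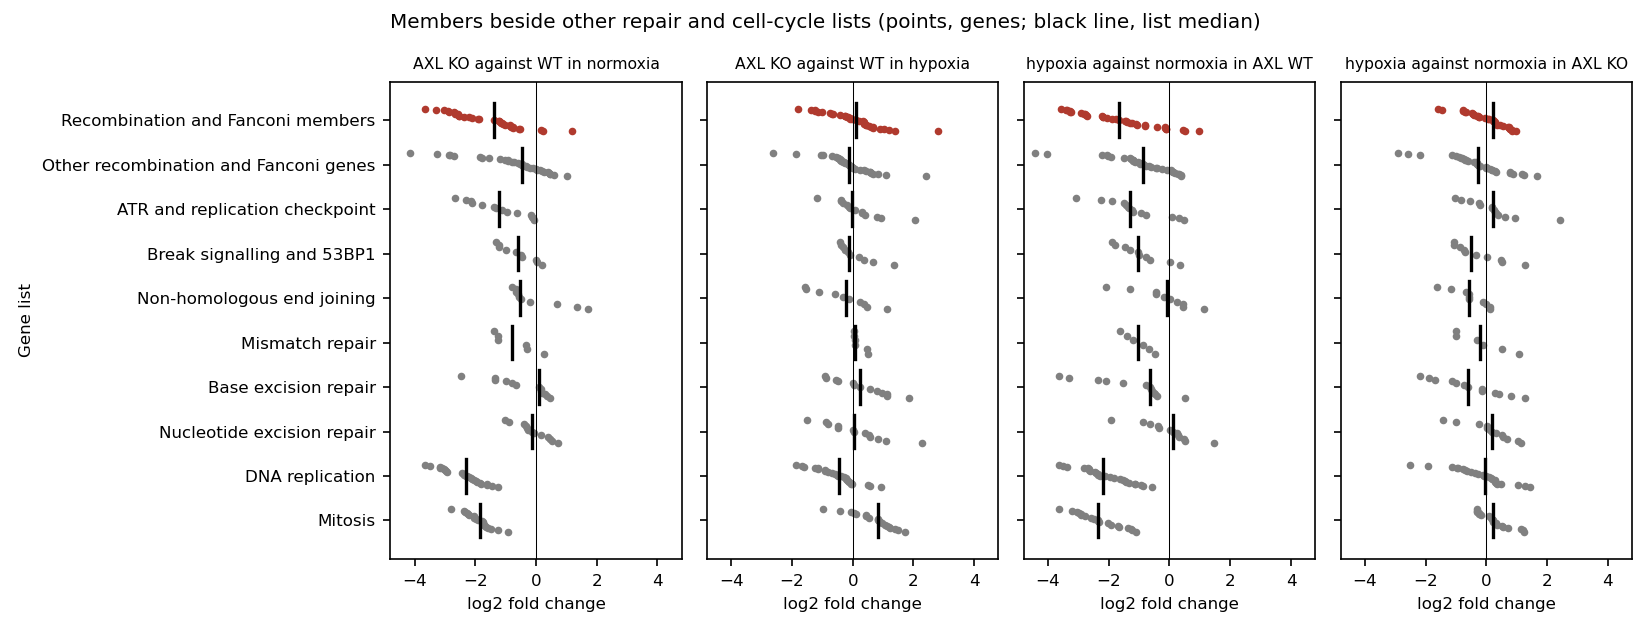
Log2 fold change of each gene (points, red for the 35 members and grey for the genes of 9 other lists) in 4 comparisons, with a black line at the median of each list. In AXL KO against AXL WT in normoxia the medians run from -2.3 for DNA replication, past -1.4 for the members, to 0.11 for base excision repair.

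Targets of the hypoxia-inducible factor went the other way. Of 14 such genes 13 rose and 0 fell in AXL WT hypoxia (median 2.57) and all 14 rose in AXL KO hypoxia (median 2.08). In AXL KO normoxia 13 of 14 were higher than in AXL WT normoxia (median 1.23). Among them were the mitochondrial protein gene Bnip3, by 2.38 ± 0.16 (adjusted p = 1.58e-07), and Pdk1, whose product inhibits pyruvate dehydrogenase, by 2.32 ± 0.16 (adjusted p = 1.65e-07). The group in which the recombination genes were low in normoxia was thus also one in which these targets were high, and the part of one in the other was not tested.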

How the data were processed

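RNA of 12 libraries was measured by RNA-seq. Per the submitters' processing notes, reads were checked with FastQC 0.11.5, aligned with STAR 2.5.1b to GRCm38 and counted with featureCounts 1.4.6 (1.6.0 per the file headers, with Ensembl release 93 and strand setting 2), and DESeq2 1.12.3 was used. The deposited values are raw counts per gene. Strand was used, so overlapping genes on opposite strands are counted apart. Groups come from the sample titles, since the genotype tag contradicts the title in 6 samples. Symbols were matched by gene ID to GENCODE M21.

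Counts were fitted here with edgeR 4.0.16 (R 4.3.3): filterByExpr (16767 genes kept, 37465 removed), TMM, and a robust quasi-likelihood model with 1 mean per group over all 12 libraries (common coefficient of variation 0.201, with 8 degrees of freedom left for the spread). A call needs an adjusted p below 0.05 (Benjamini-Hochberg, all genes tested). The SE of a log2 fold change is its size divided by the square root of edgeR's F, and 95% intervals use the t quantile. Because the spread is pooled, SEs and intervals can be too narrow for comparisons with AXL WT hypoxia and too wide for those without it. Alternatives used DESeq2 1.42.0 and limma 3.58.1. The fit was tested on simulated counts with the same spread in every group and a genotype effect only. That test does not cover unequal spread between groups, hypoxia effects or a true interaction. Members and lists were chosen with earlier results of these data known. All members are named. Values in every library are given for the member of each role with the smallest adjusted p in normoxia and for called members against the majority direction. Other members given that way (such as Exo1, Brca2, Xrcc3 and Blm) were added after their values were seen, as was Rpa1 of the lists, of which at most 4 genes with the smallest p are named per comparison.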

Additional observations from a re-analysis of the deposited data

Results flagged for a closer look

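For 26 members the effect of hypoxia differed between the genotypes by the interaction test (edgeR, adjusted over all genes tested, 28.8% of which were called). The values are the log2 effect of hypoxia in AXL KO minus that in AXL WT, with 3 libraries per group. For the checkpoint kinases they were 1.13 for Atm, 1.21 for Atr, 3.12 for Chek1 and 1.07 for Chek2. In the resection genes they were 1.08 for Mre11a, 0.98 for Rad50, 1.11 for Rbbp8, 2.42 for Exo1 and 3.08 for Blm. In the BRCA complexes they were 2.95 for Brca1, 2.82 for Bard1, 3.62 for Brip1, 2.64 for Palb2 and 1.76 for Brca2. In the strand exchange genes they were 1.20 for Rad51c, 3.58 for Xrcc3, 3.56 for Rad51ap1, 3.03 for Rad54l and 2.22 for Rad54b. For the Fanconi genes they were 2.15 for Fanca, 2.11 for Fancb, 0.74 for Fancl, 3.26 for Fancd2 and 1.95 for Fanci. For the remaining members they were 1.65 for Msh6 and 2.35 for Polq. Of these, Fancl lost its call in 8 of the 12 fits that left out 1 library and in limma-voom (adjusted p = 0.137). No other member of the 26 lost its call when 1 library was left out.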

How the results depend on the processing

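Each count was recomputed with library size alone or RLE size factors for scaling, with no low-count filter or with 5 CPM in 3 libraries, DESeq2, limma-voom with a weight per group, the compared groups alone, without AXL WT hypoxia libraries 2 and 3, against a minimum fold of 1.5, and without each library in turn. The counts of 32 members lower in AXL KO normoxia, 28 lower in AXL WT hypoxia and 26 called above 0 in the interaction stayed within 1.5 times under all of them. The members higher in AXL KO normoxia (1) were 3 in limma-voom, 2 with the compared groups alone and 2 without AXL WT hypoxia libraries 2 and 3, and 1 to 2 leaving out 1 library (2 without AXL WT hypoxia library 1). In hypoxia, the 12 members higher in AXL KO were 7 with library size alone, 7 in limma-voom, 4 with the compared groups alone and 4 with the minimum fold, and the 10 lower were 6, 4 and 6 in limma-voom, without AXL WT hypoxia libraries 2 and 3 and with the minimum fold. The 2 higher in AXL WT hypoxia were 1 with library size alone, no filter, limma-voom, the compared groups alone and the minimum fold, and 2 to 3 leaving out 1 library (3 without AXL WT hypoxia library 2). The 9 higher in AXL KO hypoxia against normoxia were 14 in limma-voom, 14 without the 2 libraries and 2 with the minimum fold. The 6 lower there were 11 in limma-voom, 11 with the compared groups alone, 11 without the 2 libraries, 2 with the minimum fold, 9 with library size alone, and 3 to 11 leaving out 1 library. The 0 called below 0 in the interaction were 1 without the 2 libraries and 0 to 2 leaving out 1 library (2 without AXL WT hypoxia library 1). Directions turned for Bard1 between genotypes in hypoxia without AXL WT hypoxia library 1 (0.702, adjusted p = 0.0309, against -0.399 without library 2) and, without libraries 2 and 3, for Fancm there (0.041), Fance in AXL WT hypoxia (0.33, adjusted p = 0.00904), and Rad52 (-0.57, adjusted p = 0.00257) and Fancg (0.54, adjusted p = 0.0181) in the interaction. The cause was not tested. Library size alone moved the median of all genes from -0.03 to -0.28 in AXL KO normoxia and from -0.02 to -0.32 in AXL WT hypoxia. The numbers are not shown to pair the libraries (6 of 18 same-numbered pairs correlated above 0.1, from -0.14 to 0.25). With the replicate number as a block, 32 members were lower in AXL KO normoxia, 28 in AXL WT hypoxia and 27 called above 0 in the interaction, and in hypoxia 13 were higher and 9 lower. Low counts limit Xrcc3 in AXL WT hypoxia, with 9 in its lowest library. Counts over all genes moved between the fits too, and their shares under most of these alternative rules are not given here. A moved count of members therefore does not tell the members apart from all genes. Leaving out 1 library, the genes called above 0 in the interaction ran from 1428 to 4246, and those below from 1915 to 4171.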
